A study of Mus musculus with 6 samples.

Results

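The 10 genes described here mark newborn neurons and the progenitors that give rise to them: Dcx, Sox4, Sox11, Igfbpl1, Nrep, Tubb2b, Crmp1, Marcksl1, Fabp7 and Ccnd2. They were matched by symbol in a table of 47728 genes, and all 10 passed the filter on low counts, which 17074 genes passed. They were chosen on their difference between the groups of this same study, so their levels and fold changes are given as a description, without a test. RNA was sequenced from frozen cortex of 2 groups of mice. FAD5x mice model Alzheimer's disease with human transgenes that hold mutations of inherited forms and are driven in neurons by a Thy1 promoter, and the Control group was wildtype C57BL/6. Each group held 3 libraries, numbered 1 to 3. Age, sex, the number of animals and any pooling are not given in the sources used here, so p-values reflect no more than the spread among libraries, part of which may be technical. Nothing beyond the genotype separates the groups in the labels. In all, 10 of 10 genes were lower in every FAD5x library than in every Control library. Over all tested genes, 13.2% met that same criterion. In the comparison of all genes, 3.15% of tested genes were called in either direction, 1.39% lower and 1.76% higher in FAD5x, at an adjusted p below 0.05. Sox4 and Nrep, 2 of the 10 genes, were among those called lower. Because the genes were chosen on this contrast, these counts restate the choice and nothing is read from them.

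Newborn neurons pass through a short immature stage between the last division of a progenitor and the growth of synapses. In that stage they express transcription factors that switch on neuronal genes, and cytoskeletal proteins that let the cell migrate and extend neurites. In the adult mouse forebrain such cells arise mainly beside the lateral ventricles, from where they migrate to the olfactory bulb, and in the dentate gyrus of the hippocampus. The mature cortex holds few of them, although several of the genes are also expressed at lower levels by mature neurons or glia. In bulk tissue, fewer cells of a type and less RNA per cell cannot be told apart.

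The 10 genes were chosen on this contrast, so being low in the same libraries gives no ground to expect shared promoter motifs. Promoter sequences are shown as a description for 4 of the genes: the migration gene Dcx, both SOX factors, and Fabp7 of the progenitors. They come from RefSeq on GRCm38.p6, an earlier build than the one named for the counts, and are written on the strand that RefSeq gives for the gene, leaving out bases that GENCODE annotates as transcribed. For Sox11 the bases after the RefSeq start were not found at the start of a GENCODE transcript, so its distance from that start is not given. Capitals mark matches to the motifs searched on both strands: ACAAAG and ACAATG, cores bound by SOX factors, and CAGCTG and CAGATG, E-boxes of the kind bound by proneural factors.
Dcx (chrX:143933312-143933469, minus strand): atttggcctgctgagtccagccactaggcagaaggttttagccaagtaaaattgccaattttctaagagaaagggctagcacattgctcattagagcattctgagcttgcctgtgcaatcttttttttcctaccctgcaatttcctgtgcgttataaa
Sox4 (chr13:28953714-28953949, minus strand): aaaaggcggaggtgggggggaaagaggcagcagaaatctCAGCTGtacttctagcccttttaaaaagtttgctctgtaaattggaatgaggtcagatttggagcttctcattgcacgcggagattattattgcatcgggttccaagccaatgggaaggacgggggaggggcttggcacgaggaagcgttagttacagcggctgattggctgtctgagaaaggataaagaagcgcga
Sox11 (chr12:27342719-27342968, minus strand): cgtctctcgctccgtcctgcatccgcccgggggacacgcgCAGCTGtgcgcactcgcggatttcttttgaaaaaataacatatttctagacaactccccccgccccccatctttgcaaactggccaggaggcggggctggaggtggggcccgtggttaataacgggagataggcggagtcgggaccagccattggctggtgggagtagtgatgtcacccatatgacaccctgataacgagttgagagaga
Fabp7 (chr10:57784673-57784880, plus strand): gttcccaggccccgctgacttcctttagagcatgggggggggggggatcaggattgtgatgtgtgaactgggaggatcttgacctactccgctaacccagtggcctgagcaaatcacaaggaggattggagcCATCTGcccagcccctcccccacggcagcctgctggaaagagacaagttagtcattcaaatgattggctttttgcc
The Sox4 and Sox11 stretches each held CAGCTG, Fabp7 held CAGATG on the opposite strand, and the Dcx stretch shown held no match. RefSeq windows were matched for 6 of the 10 genes. Crmp1 and Dcx each had a further window, and those of Dcx overlapped. In all there were 8 windows of 250 bases before a RefSeq start site. A SOX core was in 3 of these windows and an E-box in 3, against 25.2% and 25.5% of 32841 windows of the same length. The SOX core was ACAAAG in both Crmp1 windows and in a further Dcx window. In all 3 the match lay in bases that GENCODE annotates as transcribed, outside the Dcx stretch shown. No SOX core was thus found before the GENCODE start of Crmp1 or Dcx. By single motif the background shares were 16.5% for ACAAAG, 10.7% for ACAATG, 13.0% for CAGCTG and 14.4% for CAGATG. The windows differed in base composition. Dcx had 3 CpG dinucleotides in each of its windows and Fabp7 4, while Sox4 had 11 and Sox11 17, beside a median of 6 over all windows. These matches describe letters in a window and are not evidence of binding.

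Library totals ranged from 17363946 to 24137936 counts, and levels are given as CPM, counts relative to library size, scaled between libraries by trimmed mean of M values. Fold changes come from edgeR's model of all 6 libraries, 3 per group, as log2 of FAD5x over Control ± standard error (SE). Over all tested genes the median was 0.02. FAD5x 1 and FAD5x 2 carry related library names and may share an animal, which the labels do not settle. Their counts differed far beyond counting error, for example 515 against 3 counts of the striatal transcription factor Six3. That difference does not show separate animals, so n = 3 counts libraries and not animals. With FAD5x 1 and 2 summed, the median log2 fold change of the 10 genes was -1.44. Control 1 had 3 counts of Xist, expressed from the inactive X chromosome of females, and 3124 counts of 4 Y-linked genes, while Xist had 10346 counts or more in each of the other 5. Markers of the olfactory bulb and of the striatum also differed between libraries, and their values stand beside the results they touch.

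**Figure D1:**
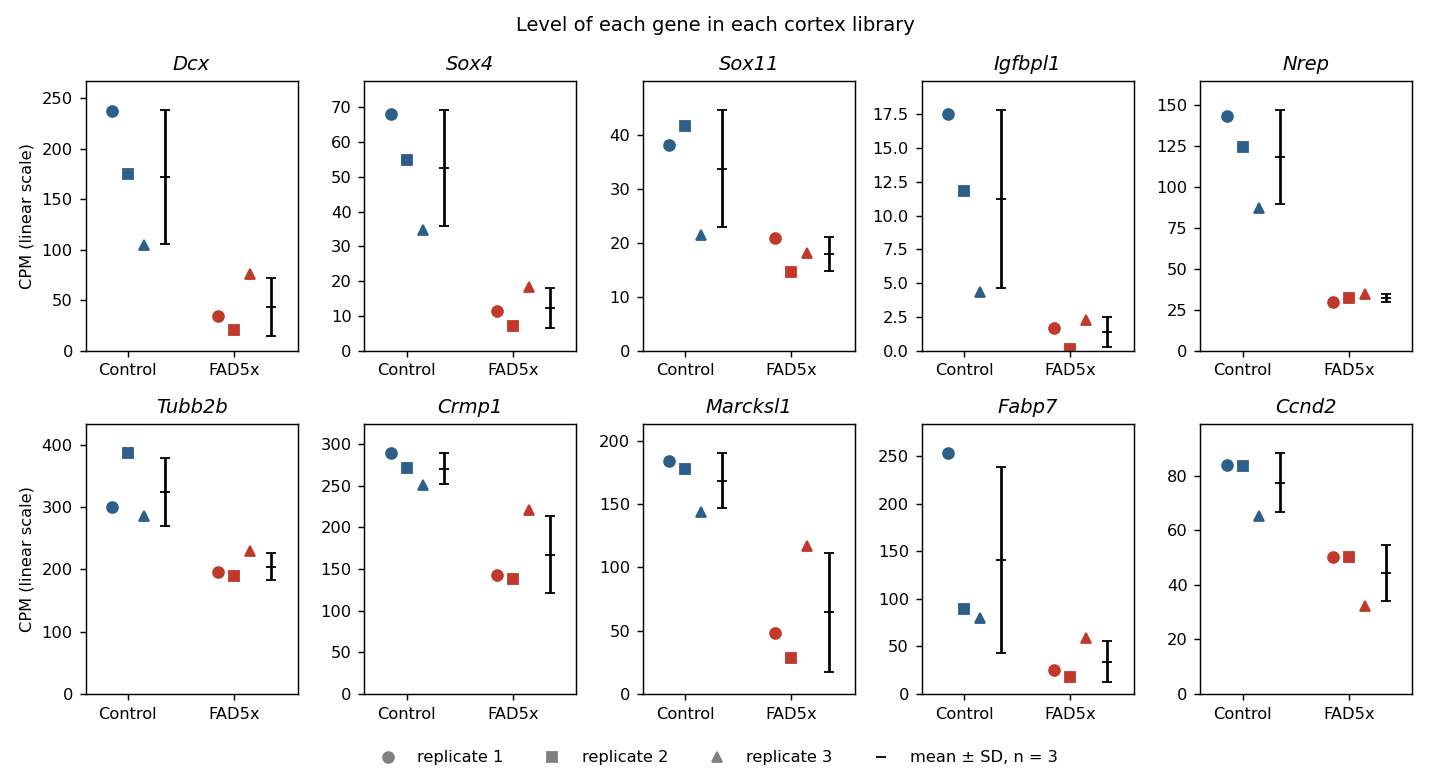
Level of each of the 10 genes in CPM on a linear axis, 1 panel per gene, with 1 point per library (circle, square and triangle for replicates 1, 2 and 3) and the mean ± SD of each group beside it (n = 3). In each panel the 3 FAD5x points lie below the 3 Control points, closest in ratio for Sox11 (20.8 against 21.4 CPM) and farthest apart for Nrep (34.4 against 87.2 CPM).

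Sox4 and Sox11 encode closely related transcription factors that activate neuronal genes, among them cytoskeletal ones, in newborn neurons. Sox4 (ENSMUSG00000076431) stood at 11.5, 7.07 and 18.3 CPM in FAD5x 1, 2 and 3 and at 68.0, 54.7 and 34.8 CPM in Control 1, 2 and 3. The mean was 12.3 ± 5.68 CPM in FAD5x and 52.5 ± 16.7 CPM in Control (SD, n = 3), 4.28-fold lower in FAD5x (log2 -2.10 ± 0.37 SE). FAD5x 3 was the highest FAD5x library and Control 3 the lowest Control library, and Control 3 was still 1.90 times FAD5x 3. Sox11 (ENSMUSG00000063632) stood at 20.8, 14.6 and 18.2 CPM in FAD5x 1 to 3 and at 38.2, 41.7 and 21.4 CPM in Control 1 to 3, 1.89-fold lower (log2 -0.92 ± 0.26 SE). For Sox11 the groups all but met: Control 3 was 1.03 times FAD5x 1, while Control 1 and 2 were well above every FAD5x library. The pair differed in size of change and in spread, with a coefficient of variation among FAD5x libraries of 46.2% for Sox4 and 17.5% for Sox11. Of the 50-base stretches in Sox4 transcripts, 54.1% also lie on Gm26735, an overlapping antisense gene that had 0 counts in all 6 libraries, and whether counting used strand was not given in the sources used here.

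Dcx encodes doublecortin, a microtubule-binding protein of migrating neuroblasts and the usual marker of adult neurogenesis. Dcx (ENSMUSG00000031285) stood at 34.3, 20.3 and 75.9 CPM in FAD5x 1, 2 and 3 and at 237, 175 and 105 CPM in Control 1, 2 and 3. That is 3.97-fold lower in FAD5x (log2 -1.99 ± 0.52 SE), from 172 ± 66.2 to 43.5 ± 28.9 CPM (SD, n = 3). FAD5x 3 was the highest FAD5x library, and the distance from it to Control 3, 1.38-fold, was small beside the spread inside each group. Tubb2b (ENSMUSG00000045136), a beta-tubulin needed for neuronal migration, stood at 196, 189 and 229.7 CPM in FAD5x 1 to 3 and at 301, 387 and 286 CPM in Control 1 to 3, 1.59-fold lower (log2 -0.67 ± 0.16 SE). Its coefficient of variation was 10.7% in FAD5x and 16.7% in Control, and the lowest Control library was 1.25 times the highest FAD5x library. Of the 50-base stretches in Tubb2b transcripts, 31.3% also occur in Tubb2a, so counts of these neighbours are uncertain where the counting could split reads. Tubb2a itself stood at 354, 348 and 489.5 CPM in FAD5x 1, 2 and 3 and at 565, 616 and 606 CPM in Control 1, 2 and 3, with a log2 fold change of -0.58 ± 0.17 SE and an edgeR adjusted p of 0.107.

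Crmp1 encodes a collapsin response mediator protein, which relays semaphorin signals to the growth cone. Crmp1 (ENSMUSG00000029121) stood at 143, 138 and 220.4 CPM in FAD5x 1 to 3 and at 289, 271 and 252 CPM in Control 1 to 3, 1.62-fold lower (log2 -0.70 ± 0.20 SE). The Control libraries lay close together, with a coefficient of variation of 6.95%, and FAD5x 3 came within 1.14-fold of Control 3. Marcksl1 encodes a membrane-bound actin regulator related to Marcks. Marcksl1 (ENSMUSG00000047945) stood at 47.8, 28.1 and 117 CPM in FAD5x 1 to 3 and at 184, 178 and 143 CPM in Control 1 to 3, 2.62-fold lower (log2 -1.39 ± 0.47 SE). Here too FAD5x 3 stood apart from FAD5x 1 and 2, and the coefficient of variation was 72.7% in FAD5x against 13.0% in Control. Without FAD5x 3 the log2 fold change of Marcksl1 was -2.15, and with FAD5x 3 as the only FAD5x library it was -0.53.

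Igfbpl1 encodes a secreted relative of the insulin-like growth factor binding proteins and is expressed in newborn neurons. Igfbpl1 (ENSMUSG00000035551) stood at 1.65, 0.145 and 2.30 CPM in FAD5x 1 to 3 and at 17.5, 11.9 and 4.36 CPM in Control 1 to 3, 8.22-fold lower (log2 -3.04 ± 0.80 SE), the largest fold of the 10. It also had the lowest counts: FAD5x 2 held 3 counts, with an exact 95% Poisson interval of 0.619 to 8.77 counts that covers counting error only, beside 40 and 44 in FAD5x 1 and 3. Control 3, with 78 counts, lay nearer to FAD5x 3 than to Control 1, at 318 counts. Nrep encodes a small neuronal protein linked to regeneration. Nrep (ENSMUSG00000042834) stood at 29.7, 32.5 and 34.4 CPM in FAD5x 1 to 3 and at 143, 125 and 87.2 CPM in Control 1 to 3, 3.68-fold lower (log2 -1.88 ± 0.19 SE). The 3 FAD5x libraries were nearly equal, with a coefficient of variation of 7.27%, and the lowest Control library was 2.54 times the highest FAD5x library, the widest separation among the 10.

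Fabp7 encodes the brain fatty acid binding protein of radial glia, progenitors and astrocytes. Fabp7 (ENSMUSG00000019874) stood at 25.1, 17.8 and 58.7 CPM in FAD5x 1 to 3 and at 253, 88.8 and 79.5 CPM in Control 1 to 3, 4.15-fold lower (log2 -2.05 ± 0.64 SE). Control 1 was far above the other Control libraries, so the Control mean of 140.5 ± 97.6 CPM (SD, n = 3) rests on it. The log2 fold change was -1.31 without Control 1 and -1.13 with both libraries numbered 1 left out. Ccnd2 encodes cyclin D2, which drives progenitors through the first phase of the cell cycle. Ccnd2 (ENSMUSG00000000184) stood at 50.4, 50.2 and 32.4 CPM in FAD5x 1 to 3 and at 84.1, 83.5 and 65.1 CPM in Control 1 to 3, 1.75-fold lower (log2 -0.81 ± 0.19 SE). Unlike Dcx, which was highest in FAD5x 3 within that group, Ccnd2 was lowest there of all 6 libraries.

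Side by side, the 10 genes covered a wide range of sizes. The log2 fold changes ran from -3.04 for Igfbpl1 to -0.67 for Tubb2b with a median of -1.63. Of all tested genes, 1.16% had a fold change at or below that median. The 10 were chosen on this contrast, so that share restates the choice and does not measure how unusual they are. Sox4, Fabp7, Dcx and Nrep lay between 3.68-fold and 4.28-fold lower, whereas Tubb2b, Crmp1, Ccnd2 and Sox11 lay between 1.59-fold and 1.89-fold. Summed over the 10 genes, the level was 559.9, 497 and 807 CPM in FAD5x 1, 2 and 3 and 1615, 1416 and 1079 CPM in Control 1, 2 and 3. FAD5x 2 was the lowest library for 8 of the 10 genes, the exceptions being Nrep and Ccnd2.

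Levels can be compared between genes only per length, as reads per kilobase of merged exons and library size (RPKM). On that scale Tubb2b led in Control at 142 ± 23.7 RPKM, followed by Fabp7 at 112 ± 78.1 and Marcksl1 at 105 ± 13.6 RPKM (SD, n = 3). Neither Tubb2b and Fabp7 nor Fabp7 and Marcksl1 differed by more than the sum of their SDs. Crmp1 at 38.4 ± 2.67 and Nrep at 30.3 ± 7.32 RPKM came next, then Dcx at 13.6 ± 5.23, Sox4 at 10.9 ± 3.49 and Ccnd2 at 8.25 ± 1.15 RPKM. Sox11 at 4.06 ± 1.31 and Igfbpl1 at 3.46 ± 2.03 RPKM were the lowest, and each gene from Crmp1 down lay within that measure of its neighbour in this order, except that Nrep and Dcx, and Ccnd2 and Sox11, lay apart. In FAD5x Tubb2b still led at 89.2 ± 9.54 RPKM, and Igfbpl1 was the lowest at 0.420 ± 0.340 RPKM. Marcksl1 in FAD5x, at 40.1 ± 29.1 RPKM, stood above Fabp7 at 27.1 ± 17.5 RPKM, though not beyond their spread. The order depends on the length used: over the longest transcript Fabp7 stood at 159.6 and Tubb2b at 149 RPKM in Control.

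Among genes outside the 10, those closest to Dcx in pattern were found by centring log2 CPM on its mean over the 6 libraries and taking the root mean square difference, over 13960 protein-coding genes. Hcn4, a pacemaker channel gene, was the closest at 0.0858, with 2.89, 1.502 and 6.17 CPM in FAD5x 1, 2 and 3 and 20.04, 12.6 and 8.11 CPM in Control 1, 2 and 3. Itih2, an extracellular matrix protein gene, followed at 0.238, and Thbs1, which encodes thrombospondin, at 0.245. Of the other 9 genes Sox4 was closest to Dcx at 0.179, which made it the second of all genes compared. Fabp7 followed at 0.321 and Marcksl1 at 0.344, then Nrep at 0.560, whereas Igfbpl1 was far off at 1.13, with its near-empty FAD5x 2 library. The 6 points share libraries and depth, so this likeness is a description of these libraries only.

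**Figure D2:**
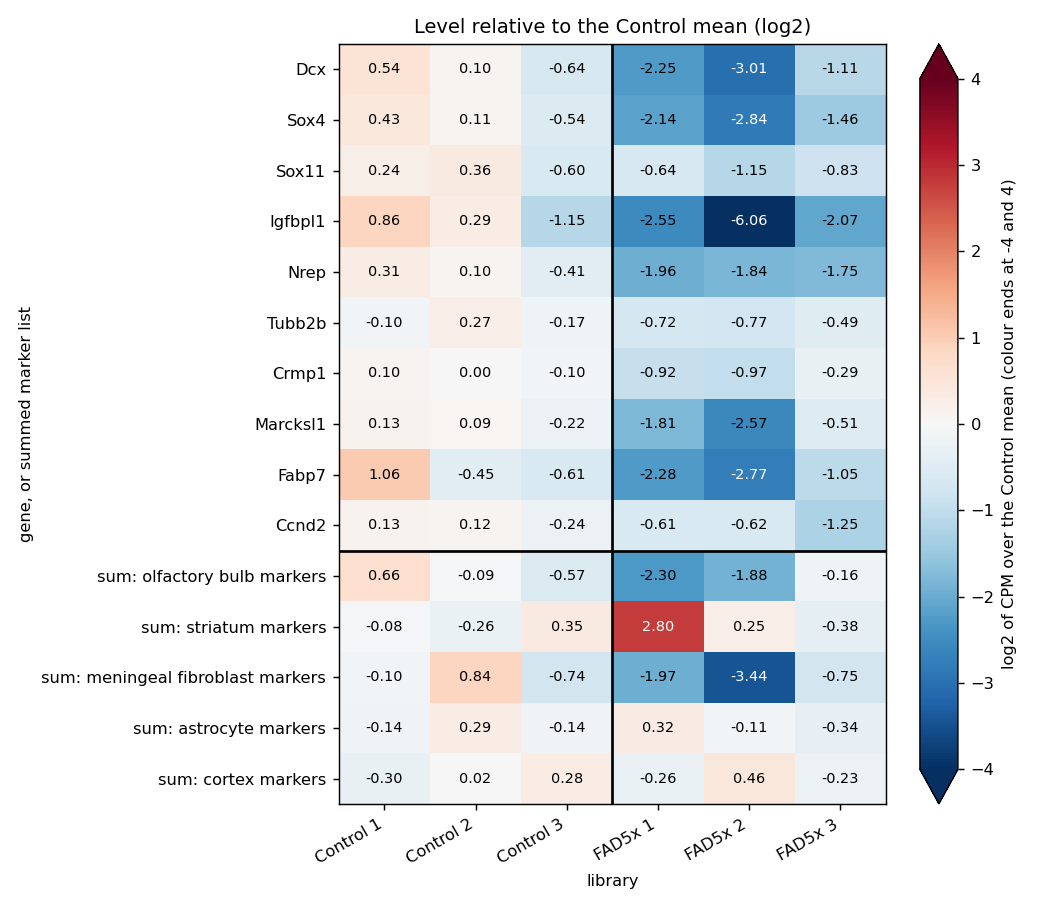
Level of each of the 10 genes, and the summed level of 5 marker lists, in each library, as log2 CPM minus the mean log2 CPM of the 3 Control libraries, printed in each cell and shown by colour, which ends at -4 and 4. The 10 genes are below 0 in all FAD5x libraries, and the olfactory bulb markers stand at -2.30, -1.88 and -0.16 in FAD5x 1, 2 and 3.

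Markers of other tissue moved with several of the genes. The 8 olfactory bulb markers, all tested, summed to 98.8, 132 and 435 CPM in FAD5x 1, 2 and 3 and to 768, 456 and 328 CPM in Control 1, 2 and 3, with a median log2 fold change of -1.31. None was called by edgeR, limma-voom called 0 and DESeq2 1, and 1 had an unadjusted p below 0.05, lower. Synpr, the most abundant, had a log2 fold change of -0.86 ± 0.29 SE (edgeR adjusted p = 0.148), and its 80.9 CPM in FAD5x 1 made up most of that library's sum. Cdhr1, a cadherin gene of mitral and tufted cells named after its values were seen, stood at 9.15, 9.06 and 121 CPM in FAD5x 1 to 3 and at 249, 141 and 99.95 CPM in Control 1 to 3. The mitral cell factor Tbx21, also named afterwards, was near 0 in FAD5x 1 and 2, at 0.0412 and 0.0969 CPM, and stood at 4.81 CPM or above in the other 4 libraries. FAD5x 3 was thus the library with bulb markers among FAD5x, and it was also the FAD5x library with the most Dcx, Sox4, Igfbpl1, Nrep, Tubb2b, Crmp1, Marcksl1 and Fabp7, 8 of the 10. Nrep had the same order of FAD5x libraries as the marker sum, over a narrow range of 29.7 to 34.4 CPM. Sox11 was highest in FAD5x 1, and Ccnd2 was lowest in FAD5x 3.

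The comparison was repeated with these markers in view, by settings added after the data were seen. In FAD5x 3 the bulb marker sum, 435 CPM, lay between Control 3 at 328 CPM and Control 2 at 456 CPM. Each of the 10 genes was lower in FAD5x 3 than in all 3 Control libraries. The genes were chosen on their difference between these same groups, so that order restates the choice. The ratios and fold changes that follow describe chosen genes, and nothing is read from their direction. Against Control 3, which had less of the bulb markers than FAD5x 3, the ratio of Control 3 to FAD5x 3 was 2.54 for Nrep, 2.01 for Ccnd2, 1.90 for both Sox4 and Igfbpl1, and between 1.14 and 1.38 for the other 6. With FAD5x 3 alone set against the 3 Control libraries, where its spread is assumed to be that of Control, the median log2 fold change of the 10 was -1.22. With the marker level as a covariate it was -0.91. Under the covariate the values of 9 of the 10 came closer to 0: Fabp7 went from -2.05 to -0.79, Igfbpl1 from -3.04 to -1.93, Dcx from -1.99 to -1.03, Marcksl1 from -1.39 to -0.64 and Sox4 from -2.10 to -1.39. Crmp1 went from -0.70 to -0.31, Nrep from -1.88 to -1.58, Sox11 from -0.92 to -0.75 and Tubb2b from -0.67 to -0.53. Ccnd2 moved away from 0, from -0.81 to -1.10. The part of bulb tissue in these differences was not tested further.

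**Figure D3:**
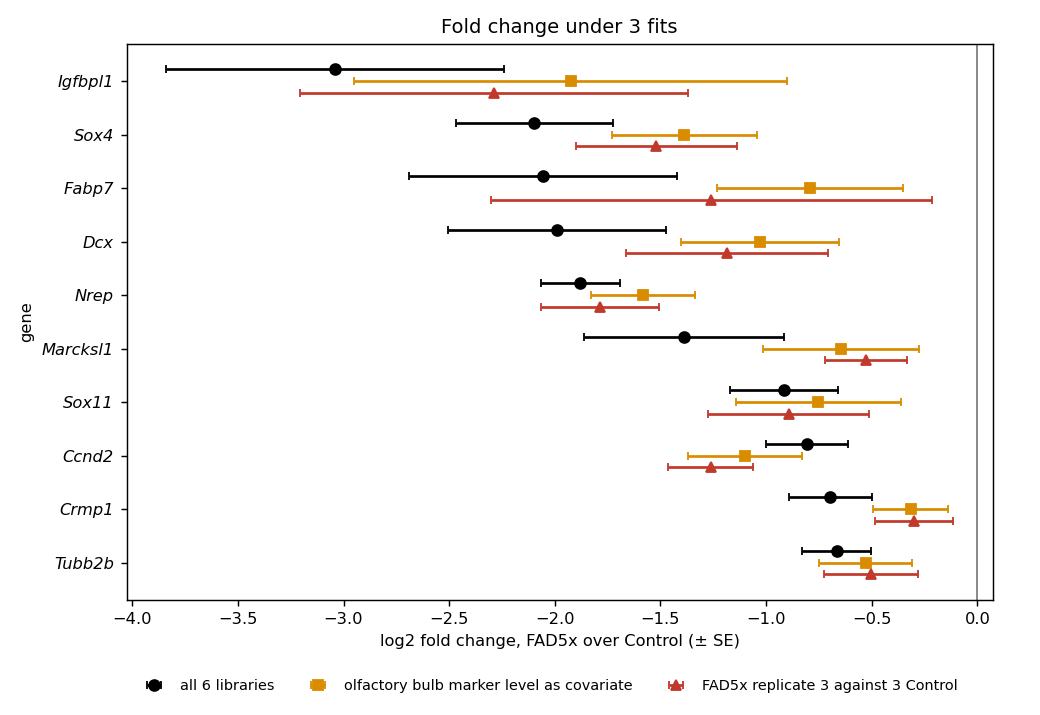
Log2 fold change of each gene, FAD5x over Control, ± SE under 3 models: all 6 libraries (black circles), the olfactory bulb marker level as a covariate (orange squares), and FAD5x replicate 3 against the 3 Control libraries (red triangles). Each value lies below 0, the direction on which the genes were chosen. Nrep (-1.88, -1.58 and -1.79) changes less between models than Dcx (-1.99, -1.03 and -1.18).

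Markers of other regions and cells followed other orders. The striatum markers summed to 1514 CPM in FAD5x 1 and to between 167 and 276 CPM in the other 5 libraries. Six3 held 515 counts in FAD5x 1 and at most 10 in any other library, and Isl1 143 and at most 2, with Isl1 at 0 in 3 libraries and Six3 at 0 in Control 1. FAD5x 1 was the middle FAD5x library for Dcx, Sox4, Igfbpl1, Tubb2b, Crmp1, Marcksl1 and Fabp7. Within that group it was the highest for Sox11 and Ccnd2 and the lowest for Nrep. Without FAD5x 1 the median log2 fold change of the 10 was -1.52. None of the 8 tested striatum markers was called by edgeR, limma-voom or DESeq2, 1 had an unadjusted p below 0.05, higher, and Pde10a had a log2 fold change of 0.99 ± 0.84 SE (edgeR adjusted p = 0.562) that turned to -0.61 without FAD5x 1. The 8 meningeal fibroblast markers were lower, at 64.7, 23.3 and 151 CPM in FAD5x 1 to 3 and 235, 454 and 151 CPM in Control 1 to 3 in sum, with a median log2 fold change of -1.41. None of these was called by edgeR or limma-voom, 3 were by DESeq2, and 4 had an unadjusted p below 0.05, all lower, with Igf2 at -1.51 ± 0.62 SE (edgeR adjusted p = 0.231). FAD5x 2 had the least of them and was also the lowest library for 8 of the 10 genes. The part of either list in the values of the 10 genes was not tested.

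Cortex markers were abundant in all 6 libraries, and the sums of cortex and astrocyte markers overlapped between the groups. The 9 cortex markers summed to between 1472 and 2417 CPM in FAD5x and between 1427 and 2145 CPM in Control, with none called by edgeR, limma-voom or DESeq2 and none at an unadjusted p below 0.05. Slc17a7, the cortical vesicular glutamate transporter, stood at 1289 ± 339 CPM in FAD5x and 1267 ± 245 CPM in Control (SD, n = 3; log2 0.02 ± 0.23 SE, edgeR adjusted p = 0.969). Markers of astrocytes, which also express Fabp7, summed to between 5528 and 8703 CPM in FAD5x and between 6323 and 8535 CPM in Control. Of the 12, edgeR and limma-voom called 0 and DESeq2 1 higher, 2 had an unadjusted p below 0.05, both higher, and Slc1a2 had a log2 fold change of -0.32 ± 0.29 SE (edgeR adjusted p = 0.576). FAD5x 1 had the highest astrocyte sum of the 6 libraries and 25.1 CPM of Fabp7, below each Control library. Dentate gyrus markers, where adult neurons also arise, summed to between 28.4 and 50.9 CPM in FAD5x and between 22.1 and 24.2 CPM in Control, the opposite direction to Dcx. The 5 tested were mixed, with 4 above 0 and 1 below, 2 higher and 1 lower at an unadjusted p below 0.05, 0 called by limma-voom, and 1 higher and 1 lower by DESeq2. Lct, named after its values were seen, was the one below 0, at -1.52 ± 0.43 SE (edgeR adjusted p = 0.0996). Prox1, also named afterwards and also in the list of immature neuron genes below, made up 23.7 of the 50.9 CPM in FAD5x 1. Prox1 overlapped between the groups, at 12.8 and 10.9 CPM in FAD5x 2 and 3 and 9.03 to 11.7 CPM in Control. Plk5 rose 2.24-fold (log2 1.16 ± 0.25 SE, edgeR adjusted p = 0.0491), a call lost without any of FAD5x 1, FAD5x 2 or the 3 Control libraries, where the edgeR adjusted p lay between 0.0553 and 0.179, and by limma-voom (adjusted p = 0.0810). In all, that call was lost in 13 of 18 alternative models. Choroid plexus and ependyma markers were sparse, at 8.33 to 19.9 CPM in FAD5x and 16.9 to 28.5 CPM in Control in sum, with 5 of 12 too low to test and Calml4 and Tmem212 at 0 in 3 and 4 libraries. None of the other 7 was called by edgeR, limma-voom or DESeq2 or had an unadjusted p below 0.05, and Aqp1 had a log2 fold change of -1.52 ± 0.80 SE (edgeR adjusted p = 0.334).

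Several of the 10 genes are also expressed in the oligodendrocyte lineage, whose markers were mixed. Of 15 markers 1 rose and 1 fell, with a median log2 fold change of -0.41 and sums of 814 to 1237 CPM in FAD5x and 1099 to 1204 CPM in Control. Gpr17, a receptor of committed precursors, fell 3.28-fold (log2 -1.71 ± 0.25 SE, edgeR adjusted p = 0.0147), from 76.0, 102 and 99.8 CPM in Control to 38.5, 26.6 and 19.4 CPM in FAD5x. FAD5x 3 had the least Gpr17, as it had the least Ccnd2. The call of Gpr17 was lost without Control 2 (edgeR adjusted p = 0.08) or Control 3 (edgeR adjusted p = 0.051). Bcas1, which marks cells starting to make myelin, rose 3.25-fold (log2 1.70 ± 0.22 SE, edgeR adjusted p = 0.0104), a call lost without Control 1 (edgeR adjusted p = 0.051) or Control 2 (edgeR adjusted p = 0.0701).

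A wider set of immature neuron genes was set beside the 10. This list held 40 further genes of newborn and migrating neurons, chosen like the other lists with earlier results of these data known. Its median log2 fold change was -0.29, beside 0.02 for all tested genes, and 31 of 40 lay below 0, beside 48.5% of all tested genes. The groups overlapped for 27 of the 40. Every FAD5x library was below every Control library for 11, beside 13.2% of all tested genes, and above for 2. Calb2, Dlx1 and Sp8, named after their values were seen, had the same order of the 6 libraries as the bulb marker sum. Calb2 stood at 9.03, 17.1 and 146 CPM in FAD5x 1 to 3 and at 255, 156 and 98.7 CPM in Control 1 to 3. The part of bulb tissue in this list was not tested. In edgeR's test 1 fell and 0 rose. At an unadjusted p below 0.05, 9 were lower and 2 higher, limma-voom called 1 lower and DESeq2 5 lower. Over all tested genes DESeq2 called 722 lower and 763 higher. Neurod1 of this list, named after its values were seen, had an unadjusted edgeR p of 0.0493 and an edgeR adjusted p of 0.234. An unadjusted p below 0.05 was thus common among all tested genes. That share was not computed, so nothing is read from the unadjusted counts of this or any other list. The gene that fell was Cd24a, which encodes a surface glycoprotein of neuroblasts also found on ependymal and blood cells. Cd24a stood at 4.41, 3.15 and 7.31 CPM in FAD5x 1 to 3 and at 35.5, 30.1 and 19.9 CPM in Control 1 to 3, 5.75-fold lower (log2 -2.52 ± 0.34 SE, edgeR adjusted p = 0.0120), with the same order of libraries as Sox4 in both groups. That call was lost without Control 1 (edgeR adjusted p = 0.051) or Control 2 (edgeR adjusted p = 0.0688). The count for the list ranged from 0 without Control 1 or Control 2 to 6 without FAD5x 3, and was 2 without FAD5x 2. Gap43, a growth cone gene named after its values were seen, lay on the other side of 0, at 0.63 ± 0.23 SE (edgeR adjusted p = 0.172).

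Progenitor and cell cycle genes, the neighbours of Fabp7 and Ccnd2 in this lineage, lay on both sides of 0. Of 34, 32 could be tested, Bub1 and Aurkb having 11 counts or fewer in each library. The median log2 fold change was -0.28, with 19 of 32 below 0, beside 48.5% of all tested genes. At an unadjusted p below 0.05, 3 were higher and 3 lower. Tnc alone fell and 0 rose in edgeR's test and by limma-voom, and DESeq2 called 2 lower. Tnc, which encodes the matrix protein tenascin C of progenitor niches and reactive glia, stood at 1.85, 1.02 and 2.09 CPM in FAD5x 1 to 3 and at 13.1, 11.7 and 8.78 CPM in Control 1 to 3, 6.74-fold lower (log2 -2.75 ± 0.31 SE, edgeR adjusted p = 0.00456). As for Nrep, each Control library was well above each FAD5x library, and Tnc was called in every leave-one-out comparison. With the bulb marker covariate the edgeR adjusted p of Tnc was 0.0579, and with both libraries numbered 1 left out it was 0.135. The count for the list was 2 without FAD5x 1 and 2 without FAD5x 3.

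Mature neuron genes also lay on both sides of 0. The median log2 fold change of 30 tested genes was -0.04, with 16 below 0, beside 48.5% of all tested genes. None was called by edgeR or limma-voom and 1 was by DESeq2, lower, and at an unadjusted p below 0.05 there was 1 higher and 1 lower. Without FAD5x 2, edgeR called 1. Camk2a, a kinase of excitatory synapses, had a log2 fold change of -0.12 ± 0.32 SE (edgeR adjusted p = 0.873), which was 0.13 without FAD5x 3 and 0.12 without Control 2. Snap25, of the synaptic vesicle fusion complex, was at 0.75 ± 0.30 SE (edgeR adjusted p = 0.202), with 3508 CPM in FAD5x 2 and between 1221 and 1844 CPM in the other 5 libraries. FAD5x 2, the library lowest in Dcx, was thus the highest in Snap25.

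**Figure D4:**
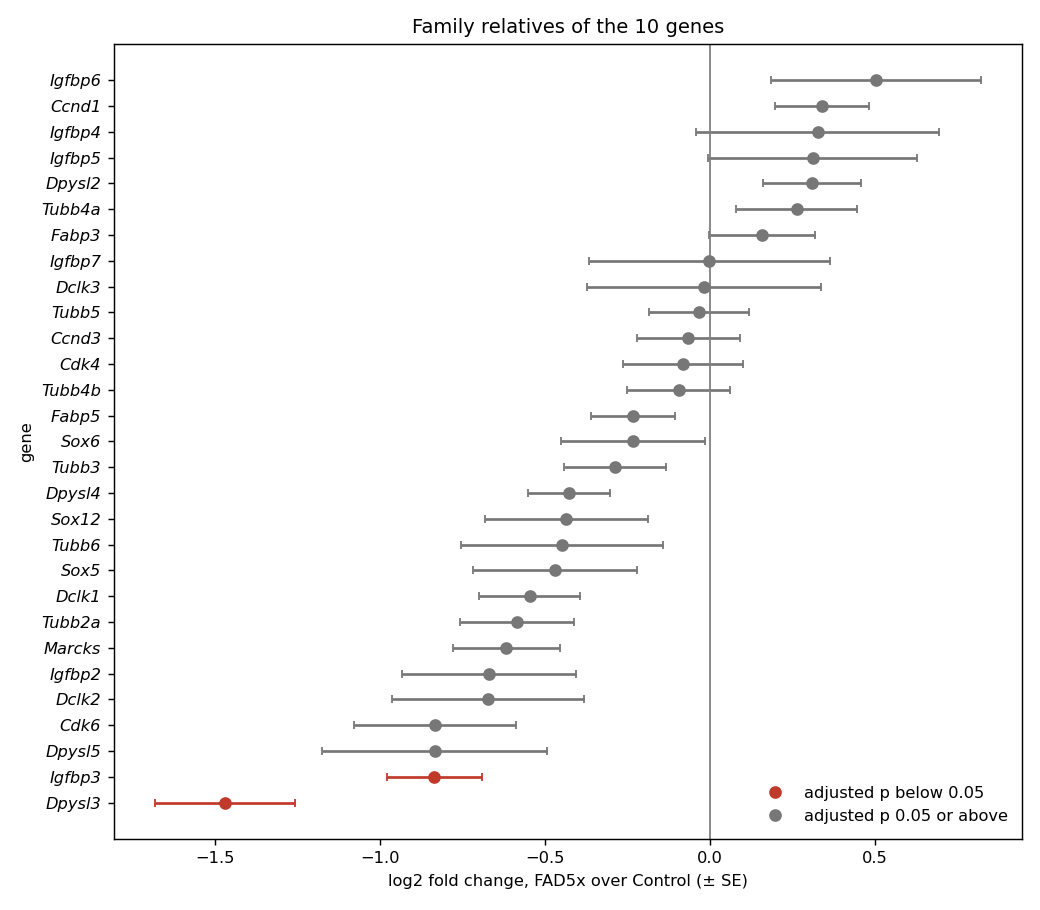
Log2 fold change ± SE, FAD5x over Control (3 libraries each), of 29 family relatives of the 10 genes, ordered by value, with red points for an adjusted p below 0.05. Dpysl3 at -1.47 and Igfbp3 at -0.84 are the red points, and 22 of 29 lie below 0, beside 48.5% of all tested genes.

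Relatives from the same gene families allow the 10 to be set beside genes of like protein function. The list held 29 other doublecortin, SOX, insulin-like growth factor binding, tubulin, collapsin response mediator, MARCKS, fatty acid binding and cyclin D genes with the cyclin D kinases, of which Tubb3 is also in the immature neuron list. The median log2 fold change was -0.23 and 22 of 29 lay below 0, beside 48.5% of all tested genes. In edgeR's test 2 fell and 0 rose, limma-voom called 2 lower and DESeq2 6 lower, and at an unadjusted p below 0.05 there were 9 lower and 1 higher. Dpysl3, a collapsin response mediator gene of outgrowing neurites and a relative of Crmp1, stood at 34.1, 29.6 and 47.4 CPM in FAD5x 1 to 3 and at 117, 110.2 and 80.6 CPM in Control 1 to 3, 2.77-fold lower (log2 -1.47 ± 0.21 SE, edgeR adjusted p = 0.0133). Its libraries stood in the same order as those of Dcx in both groups. The call was lost without FAD5x 1 (edgeR adjusted p = 0.0542), Control 1 (edgeR adjusted p = 0.0622) or Control 2 (edgeR adjusted p = 0.0768). Igfbp3, a binding protein relative of Igfbpl1, fell 1.78-fold (log2 -0.84 ± 0.14 SE, edgeR adjusted p = 0.0235), with edgeR adjusted p values of 0.0685, 0.119, 0.106 and 0.0744 without FAD5x 1, Control 1, Control 2 and Control 3. Marcks, the closest relative of Marcksl1, was 1.53-fold lower without passing the test (log2 -0.62 ± 0.16 SE, edgeR adjusted p = 0.0817). Without FAD5x 3 the list had 5 called genes, without FAD5x 1, Control 1 or Control 2 it had 0, and without Control 3 it had 1.

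Single libraries moved the values of the 10 genes. The median log2 fold change was -2.04 without FAD5x 3 and -1.33 without FAD5x 2. Called genes among the 10, 2 with all libraries, numbered 6 without FAD5x 3, 3 without FAD5x 2 and 1 without FAD5x 1, Control 1 or Control 2, a count that describes chosen genes and tests nothing. Without Control 1, which differs from the other 5 libraries in Xist and Y-linked counts, the median log2 fold change of the 10 was -1.32. With both libraries numbered 1 left out it was -1.13. Each of the 10 had a negative fold change under all 18 alternative models, a direction that the choice of the genes fixes.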

How the data were processed

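Cortex was frozen and its total RNA taken up in TRIzol and cleaned on a column, per the labels' protocols, with a library preparation not given in the sources used here. The submitters' processing notes name cutadapt, STAR 2.7.11b, featureCounts, edgeR 3.38.4, limma and the build GRCm39, with neither order nor settings. For 6 libraries the authors deposited raw counts of each gene, which the labels match to columns by library name and to groups by genotype. Of 47729 lines 1 was left out for a cell without a number. Symbols and exon lengths came from a GENCODE annotation of the earlier GRCm38 build, with 47223 identifiers matched and 505 not.

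All genes were fitted at once with edgeR 4.0.16 in R 4.3.3 (filterByExpr, trimmed mean of M values, robust quasi-likelihood F-test, two-sided, Benjamini-Hochberg over 17074 genes, called at an adjusted p below 0.05). Tested genes held 99.8% of counts or more, and the biological coefficient of variation was 23.3%, which limits what 3 libraries per group can show. The steps were tested on simulated counts. CPM and RPKM were computed from the deposited counts.

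The 10 genes, the gene lists and the marker lists were chosen with earlier results of these data known. Named beyond the 10 are up to 4 called genes of each gene list with the smallest p, or the 2 of highest mean where none was called, up to 2 called markers per direction of each marker list or else the 1 with the highest mean, Tubb2a and Marcks, and the 3 protein-coding genes most like Dcx. Alternatives were limma-voom (limma 3.58.1), DESeq2 1.42.0, other scalings, no filter, a replicate block, FAD5x 1 and 2 summed, protein-coding genes only, a looser threshold, and each library left out in turn.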

Additional observations from a re-analysis of the deposited data

How the results depend on the processing

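The 10 genes had negative fold changes under all 18 alternative models, a direction fixed by their choice. Their median log2 fold change of -1.63 lay between -2.04 and -1.32 when 1 library was left out. Of 537 genes called over all genes, leaving out 1 library gave 81 to 989. Called genes among the 10 (2) ranged from 1 to 6 in those comparisons, among the immature neuron genes (1) from 0 to 6, progenitor genes (1) from 1 to 2, mature neuron genes (0) from 0 to 1 and relatives (2) from 0 to 5. DESeq2 called 1485 genes in all and, in the same order of lists, 8, 5, 2, 1 and 6. With an adjusted p below 0.1 there were 1251 in all, 8 of the 10, 4 immature neuron genes, 2 progenitor genes and 4 relatives. Without a filter there were 1063 in all, 5 of the 10 and 3 immature neuron genes. The libraries were not treated as paired by replicate number. Correlations of same-numbered deviations from the group means were -0.05, -0.10 and -0.35. Over all pairs of a FAD5x and a Control library they ranged from -0.35 to 0.34, and with so few libraries they cannot settle pairing. A replicate block left 72 calls in all, 1 of the 10, 0 immature neuron genes and 0 relatives. It gave edgeR adjusted p values of 0.0724 for Cd24a, 0.0954 for Dpysl3, 0.0775 for Bcas1, 0.0801 for Gpr17 and 0.118 for both Igfbp3 and Plk5. The adjusted p of Plk5 was 0.0810 by limma-voom, and by edgeR 0.0551 with library totals only, 0.0747 with FAD5x 1 and 2 summed and 0.0514 with protein-coding genes only.

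Settings added after the data were seen moved counts as well. With the olfactory bulb covariate there were 120 calls in all, 1 of the 10, 0 progenitor genes and 0 relatives, the median of the 10 was -0.91, and edgeR adjusted p values were 0.0711 for Dpysl3, 0.166 for Igfbp3, 0.0583 for Bcas1 and 0.337 for Plk5. FAD5x 3 against Control gave 897 calls and 3 progenitor genes. With both libraries numbered 1 left out there were 34 calls, and 0 among the 10, the immature neuron genes, the progenitor genes and the relatives, with a median of -1.13 for the 10 and fewer libraries in the model. Reversals fell on genes that were not called. Slc17a7 was at -0.0032 with library totals only, -0.041 with FAD5x 1 and 2 summed, -0.20 without FAD5x 2, -0.11 without Control 1, -0.20 with the covariate and -0.15 for FAD5x 3 against Control. Pde10a was at -0.61 without FAD5x 1, -0.59 with the covariate, -0.49 for FAD5x 3 against Control and -0.61 without both libraries numbered 1. Camk2a was at 0.13 without FAD5x 3 and 0.12 without Control 2, and Aqp1 at 0.082 with the covariate. With 1 library left out, Camk2a ranged from -0.44 to 0.13, Pde10a from -0.61 to 1.43 and Slc17a7 from -0.20 to 0.17. The cause of these changes was not tested. At 3 counts in FAD5x 2, a library of 22626806 counts in all, counting error weighs most on Igfbpl1.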
